A study of Mus musculus with 24 samples.

Results

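The RAS response of SMB56, a mouse medulloblastoma cell line, was set against that of its sister lines SMB21 and SMB55. The response of a line is its level in RAS transformed cells minus its level in parental cells. The SMB56 difference is the response of SMB56 minus the mean of the responses of SMB21 and SMB55. It was computed for 11957 genes from 15 of the 24 arrays of the series. These are 2 of SMB56 RAS and 2 of SMB56 parental, 3 of SMB21 RAS and 4 of SMB21 parental, and 2 of SMB55 RAS and 2 of SMB55 parental. No measured value chose the arrays, and the genes of the X and Y chromosomes were left out.

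All 6 groups share a Ptch1 mutant background. The lines came from tumors that arose spontaneously in Ptch+/- mice, and they grow as neurospheres in serum-free DMEM/F12 with B27 and antibiotics. The labels give the age as adult for all of them. Parental cells are those whose titles name neither RAS nor added growth factors. Each line stands for 1 tumor culture, and which RAS gene was used and how it was brought into the cells are not given in the sources used here. The titles number the replicates as biological, but nothing says which cultures they came from, so p-values measure only the spread between these arrays.

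Medulloblastomas of the Sonic hedgehog (Shh) class arise from precursors of cerebellar granule neurons, whose division is driven by Shh. The receptor Ptch1 holds Smo back, and without Ptch1 the Gli transcription factors stay active and keep genes such as Gli1, Mycn and Ccnd1 on. RAS proteins carry growth factor signals to the kinase ERK, which induces transcription factors of the Ets, Fos and Egr families together with its own brakes, the Dusp phosphatases and the Sprouty proteins.

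Levels are log2 of the deposited intensity plus 16, with 1 probe set per gene, and every difference is a difference of such levels. Levels near 5 lie close to the lowest intensities, where changes are compressed. Array medians lay between 215.8 and 245.1 intensity units and single values between 10 and 37842. The number of arrays limits the precision, since an array has no read depth.

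The 2 parental arrays of SMB56 stood apart from each other. They correlated at 0.944 over all genes, against 0.962 to 0.996 for the other 12 pairs of arrays within a group, and 1338 genes lay at least 2-fold apart between them (11.2% of those fitted). The 2 RAS arrays of SMB56 correlated at 0.992. Parental array 1 correlated at 0.959 to 0.962 with the SMB21 parental arrays and at 0.942 to 0.960 with the SMB55 ones. Parental array 2 correlated at 0.947 to 0.958 with SMB21 and at 0.963 to 0.980 with SMB55. The RAS arrays of SMB56 correlated at 0.952 with parental array 2 of their own line and at 0.892 to 0.893 with parental array 1. They correlated at 0.957 to 0.972 with the SMB55 RAS arrays.

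Genes of other lineages moved with that split. Of 6 genes that lay furthest apart in each direction, the cardiac actin gene Actc1 had a level of 5.91 and 5.82 in SMB56 RAS, and of 11.46 in parental array 1 and 6.15 in parental array 2. Vcan, a proteoglycan of the matrix, had 12.30 and 11.89 in SMB56 RAS, and 5.37 in parental array 1 and 11.78 in parental array 2. Aldoc, an enzyme of glycolysis, had 14.60 and 14.61 in SMB56 RAS, and 7.47 and 13.94 in parental arrays 1 and 2. In 11 of the 12 genes, which were chosen by the size of that gap, the mean of the RAS arrays lay nearer parental array 2. The exception was Cavin2, a caveola protein, with 9.86 and 8.93 in SMB56 RAS, and 12.12 and 5.74 in parental arrays 1 and 2. Plagl1, an imprinted zinc finger gene, lay between the parental arrays, with 8.57 and 9.70 in SMB56 RAS and 5.69 and 12.23 in arrays 1 and 2.

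The 18 muscle and smooth muscle genes averaged 6.96 and 6.94 in SMB56 RAS, and 8.60 and 6.63 in parental arrays 1 and 2. Myod1, the regulator that starts the muscle program, stood at 6.08 and 5.96 in SMB56 RAS and at 9.07 and 5.95 in the parental arrays. The 12 genes of the oligodendrocyte lineage averaged 10.20 and 10.06 in SMB56 RAS, and 7.42 and 10.07 in the parental arrays. Their defining transcription factor Olig2 stood at 11.28 and 11.04 in SMB56 RAS and at 7.03 and 11.12 in the parental arrays. Fewer cells of a type and less RNA per cell cannot be told apart in such samples. Both parental arrays held the granule neuron precursor factor Atoh1 at a high level, 12.97 and 12.24.

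The labels were checked further on 46 genes that separate SMB21 from SMB55 by at least 1 in every array, chosen after the values were seen. SMB56 RAS arrays 1 and 2 lay nearer SMB55 in 44 and 45 of them, parental array 1 in 9 and parental array 2 in 37. The Y-linked Kdm5d, read only as a check of the arrays, had 4.88 and 5.13 in SMB56 RAS and 8.73 and 8.25 in SMB56 parental cells. Another Y-linked gene, Eif2s3y, had 5.01 and 5.68 in SMB56 RAS, and 4.93 and 9.23 in parental arrays 1 and 2. SMB21 parental array 1 also stood apart, with Eif2s3y at 9.54 against 4.95 to 5.15 in the other 3 arrays of its group. The source of the gap between the arrays was not tested, and each called difference below is followed by its value with SMB56 parental array 1 alone and with array 2 alone.

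Against the other lines, RAS transformed SMB56 cells held higher levels of Ctnnd2, a junction protein of neurons, Npy, a neuropeptide, and Rtn1 and Scg3, proteins of the secretory pathway. They gained less of Inhba, an activin subunit, Itga6, an integrin, and Pmepa1, a target of TGF-beta. Of the 11957 genes, 111 were called different in limma at a Benjamini-Hochberg adjusted p under 0.05 (0.928%). The response of SMB56 was higher in 70 (0.585%) and lower in 41 (0.343%), and 100 of the 111 differed at least 2-fold. The higher genes ranged between 0.80 and 4.69 with a median of 1.54. The lower ones ranged between -3.84 and -0.62 with a median of -2.16. At an unadjusted p under 0.05 the count was 1802 genes.

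The count depended on which SMB56 parental array was used. With array 1 alone 846 genes were called (7.08%), of which higher ones were 4.57% and lower ones 2.51% of all genes, and with array 2 alone 33 (0.276%), 13 higher (0.109%) and 20 lower (0.167%). Higher genes were thus 39.4% of the calls with array 2 alone and 63.1% with both arrays. All 111 kept their sign with either array. All were called with array 1 alone, 23 also with array 2 alone, and 26 genes in all were called with each array alone. The standard error holds the gap between the 2 arrays, so that genes on which they disagree pass less easily. The arrays lay at least 2-fold apart in 6 of the 111. The count was 53 without SMB56 RAS array 1, 5 without SMB56 RAS array 2, and 69, 54 and 54 without SMB21 parental array 2, 3 and 4. With the arrays of SMB21 and SMB55 pooled in place of a mean of both lines it was 15.

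**Figure D1:**
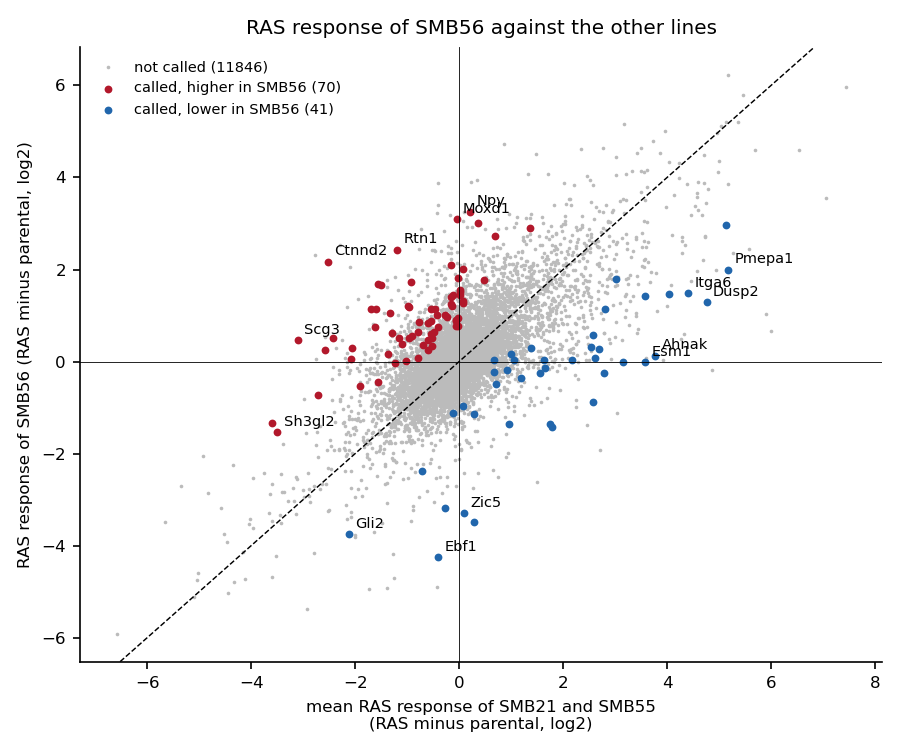
RAS response of SMB56 (vertical axis, RAS minus parental, log2) against the mean response of SMB21 and SMB55 (horizontal axis), with 1 point per gene and a dashed line where both are equal. The 70 genes called higher in SMB56 lie above the line and the 41 called lower lie below it, with Ctnnd2 rising in SMB56 and falling in SMB21, and Pmepa1 rising less in SMB56.

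Each line responded to RAS at many genes. In SMB56 1398 genes were called (11.7%), 754 up (6.31%) and 644 down (5.39%). In SMB21 2343 genes were called (19.6%), with 9.15% of all genes up and 10.4% down, and in SMB55 2576 (21.5%), with 10.8% up and 10.7% down. With each array centred on its median, 36.2% of the calls in SMB56 were rises, in place of 53.9%. The count in SMB56 was 2239 with parental array 1 alone, 365 with parental array 2 alone, and 477 and 309 without RAS array 1 and 2. That in SMB55 was 1198 without parental array 1 and 1334 without RAS array 1. The 111 genes were sorted by whether a line's response reached 2-fold, a size and not a test. Of the 70 higher genes, 17 reached it in SMB56 and in neither other line, 12 in SMB56 and the opposite way in another line, and 12 in both other lines and not in SMB56. Another 17 stayed below 2-fold in all 3 lines. Of the 41 lower genes, 9 reached it the same way in all 3 lines, 9 in both other lines and not in SMB56, 9 in 1 other line, and 3 in SMB56 and in neither other line. Responses below 2-fold could still be called.

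Each difference can be split into a gap between RAS groups and a gap between parental groups. The gap between SMB56 RAS and the mean of the other RAS groups was larger than the gap between the parental groups in 97 of the 111 genes, 59 of the higher and 38 of the lower (87.4%). Over all fitted genes it was larger in 7616 (63.7%), and the test that chose the 111 passes less easily where the SMB56 parental arrays disagree. In 100 of the 111 genes both SMB56 RAS arrays lay above or below all 5 RAS arrays of the other lines. The same held for 2996 of all fitted genes (25.1%), and the calls use these same arrays. Against single lines, 216 genes differed between the responses of SMB56 and SMB21 (1.81%, and 1.02% higher in SMB56) and 83 between SMB56 and SMB55 (0.694%, and 0.401% higher in SMB56). Between SMB21 and SMB55 it was 326 (2.73%, and 1.16% higher in SMB21). Of the 111 genes, 79 were also called against SMB21, 43 against SMB55 and 22 against both. With arrays centred, 46.2% of the calls against SMB21 were higher in SMB56, in place of 56.5%. The count against SMB21 was 983 and 90 without SMB56 parental array 2 and 1, 85 and 47 without SMB56 RAS array 1 and 2, and 117 and 118 without SMB21 parental array 3 and 4. The count against SMB55 was 545 without SMB56 parental array 2 and 7 without SMB56 RAS array 2. It was 145, 51 and 150 without SMB21 parental array 1, SMB21 parental array 4 and SMB21 RAS array 1, and 38 and 39 without SMB55 parental array 2 and SMB55 RAS array 1. Between SMB21 and SMB55 leaving out 1 array gave 82 (SMB55 parental array 1) to 578 (SMB21 RAS array 1).

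The largest higher difference was that of Ctnnd2, delta-catenin, a junction protein of neurons encoded on chromosome 15. It stood at 11.63 and 11.70 in SMB56 RAS, and at 9.31 and 9.67 in SMB56 parental cells. In SMB21 it stood at 6.86, 5.59 and 5.48 in RAS arrays and at 10.04, 9.82, 10.20 and 10.01 in parental ones. In SMB55 it stood at 8.71 and 8.81 in RAS arrays and at 9.85 and 9.67 in parental ones. Both SMB56 RAS arrays thus lay above every other array, while the RAS arrays of the other lines lay below their parental cells, by a response that passed in SMB21 and not in SMB55 (adjusted p = 0.0696). The difference was 4.69 (SE 0.42, 25.8-fold, adjusted p = 0.000988), and 4.87 and 4.51 with parental array 1 and 2 alone.

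Moxd1, a copper monooxygenase related to dopamine beta-hydroxylase on chromosome 10, had the smallest p. It stood at 9.52 and 9.50 in SMB56 RAS and at 6.21 and 6.61 in SMB56 parental cells. In SMB21 and SMB55 it stood at 5.81 to 6.40 in the 5 RAS arrays and at 5.84 to 6.47 in the 6 parental ones. It was high in the 2 SMB56 RAS arrays and in no other of the 15. The difference was 3.15 (SE 0.18, adjusted p = 2.1e-05), and 3.35 and 2.95 with either parental array.

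Npy, the neuropeptide Y gene on chromosome 6, had a similar form. It stood at 10.40 and 10.77 in SMB56 RAS and at 7.18 and 7.49 in SMB56 parental cells. The RAS arrays of SMB21 had 6.07, 6.06 and 6.23 and those of SMB55 6.30 and 7.96. Both SMB56 RAS arrays lay above all others, and SMB55 RAS array 2 stood above its group. The difference was 3.04 (SE 0.46, adjusted p = 0.0138, 3.20 and 2.89 with parental array 1 and 2 alone). Asic2, an acid-sensing ion channel, stood at 9.23 and 9.72 in SMB56 RAS and at 6.32 and 6.61 in SMB56 parental cells. Its RAS and parental means were 6.13 and 6.31 in SMB21 and 7.22 and 6.32 in SMB55, with an SD of 1.09 in SMB55 RAS. The difference was 2.65 (SE 0.47, adjusted p = 0.0276, 2.80 and 2.50 with parental array 1 and 2 alone). Lgr5, a receptor for R-spondins and a Wnt target, stood at 6.81 and 7.47 in SMB56 RAS and at 5.69 and 5.80 in SMB56 parental cells. Its RAS and parental means were 6.23 and 5.73 in SMB21 and 5.72 and 6.53 in SMB55, where the RAS mean was thus the lower. The difference was 1.56 (SE 0.30, adjusted p = 0.0414, 1.61 and 1.5 with parental array 1 and 2 alone).

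Other genes rose in SMB56 and fell in another line. Rtn1, a reticulon of the endoplasmic reticulum of neurons and neuroendocrine cells, stood at 12.93 and 12.82 in SMB56 RAS and at 9.63 and 11.26 in SMB56 parental cells. SMB21 had 9.33, 9.22 and 10.10 in RAS arrays and 11.71 to 12.28 in parental ones, and SMB55 11.83 and 11.76 in RAS arrays and 11.49 and 11.79 in parental ones. The SMB56 RAS arrays lay above all others. The difference was 3.62 (SE 0.52, adjusted p = 0.0111), 4.44 with parental array 1 alone and 2.81 with parental array 2 alone.

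Scn3b, a beta subunit of voltage-gated sodium channels, stood at 9.85 and 9.29 in SMB56 RAS and at 8.55 and 8.28 in SMB56 parental cells. In SMB21 it stood at 5.76, 5.92 and 5.66 in RAS arrays and at 7.40 to 8.43 in parental ones. In SMB55 it stood at 7.44 and 7.65 in RAS arrays and at 8.68 and 9.00 in parental ones. RAS arrays lay above parental ones in SMB56 and below them in the other lines. The difference was 2.84 (SE 0.35, adjusted p = 0.00734, 2.70 and 2.97 with parental array 1 and 2 alone).

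Fmn2, a formin that builds actin filaments, rose by 1.66 in SMB56 and changed by -2.50 in SMB21 and -0.50 in SMB55, with a difference of 3.16 (SE 0.54, adjusted p = 0.0253, 3.31 and 3.02 with parental array 1 and 2 alone). Slitrk1, a membrane protein of neurite growth, stood at 8.43 and 7.76 in SMB56 RAS, and at 5.63 and 7.17 in the parental arrays. Its difference was 3.25 (SE 0.56, adjusted p = 0.0261), and 4.02 and 2.48 with either parental array. Pvt1, a long non-coding RNA gene next to Myc, stood at 9.98 and 10.26 in SMB56 RAS and at 8.06 and 8.71 in SMB56 parental cells, with a difference of 2.65 (SE 0.45, adjusted p = 0.0251, 2.98 and 2.33 with parental array 1 and 2 alone).

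Another form was a fall in both other lines that SMB56 did not share. Scg3, a granin of secretory granules, stood at 10.23 and 10.20 in SMB56 RAS and at 9.60 and 9.91 in SMB56 parental cells. In SMB21 it stood at 6.79, 7.52 and 7.55 in RAS arrays and at 9.35 to 10.80 in parental ones, and in SMB55 at 7.18 and 9.21 in RAS arrays and at 11.82 and 11.48 in parental ones. SMB56 arrays of both kinds lay above the RAS arrays of the other lines. The difference was 3.56 (SE 0.68, adjusted p = 0.0398, 3.71 and 3.41 with parental array 1 and 2 alone).

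Dab1, an adaptor of reelin signalling, stood at 10.08 and 9.63 in SMB56 RAS and at 9.43 and 9.78 in SMB56 parental cells, and fell by 3.19 in SMB21 and by 1.98 in SMB55. Its difference was 2.84 (SE 0.43, adjusted p = 0.0138, 3.01 and 2.66 with parental array 1 and 2 alone). Nell2, a secreted glycoprotein of the nervous system, had a difference of 2.94 (SE 0.49, adjusted p = 0.0245, 3.24 and 2.65 with parental array 1 and 2 alone), with falls of the other lines and a response of 0.52 in SMB56. Hes5, a repressor induced by Notch, had a difference of 2.13 (SE 0.36, adjusted p = 0.0251, 2.34 and 1.92 with parental array 1 and 2 alone), on a probe set that can also bind other transcripts. It stood at 6.32 and 7.45 in SMB56 RAS and at 6.62 and 7.03 in SMB56 parental cells, and it fell by 1.2 in SMB21 and by 2.94 in SMB55. Foxm1, a transcription factor of mitotic genes, stood at 9.30 and 8.99 in SMB56 RAS and at 8.64 and 8.71 in SMB56 parental cells, and changed by -0.74 in SMB21 and -0.47 in SMB55 (adjusted p = 0.0673 there), with a difference of 1.07 (SE 0.20, adjusted p = 0.0325, 1.11 and 1.04 with parental array 1 and 2 alone).

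**Figure D2:**
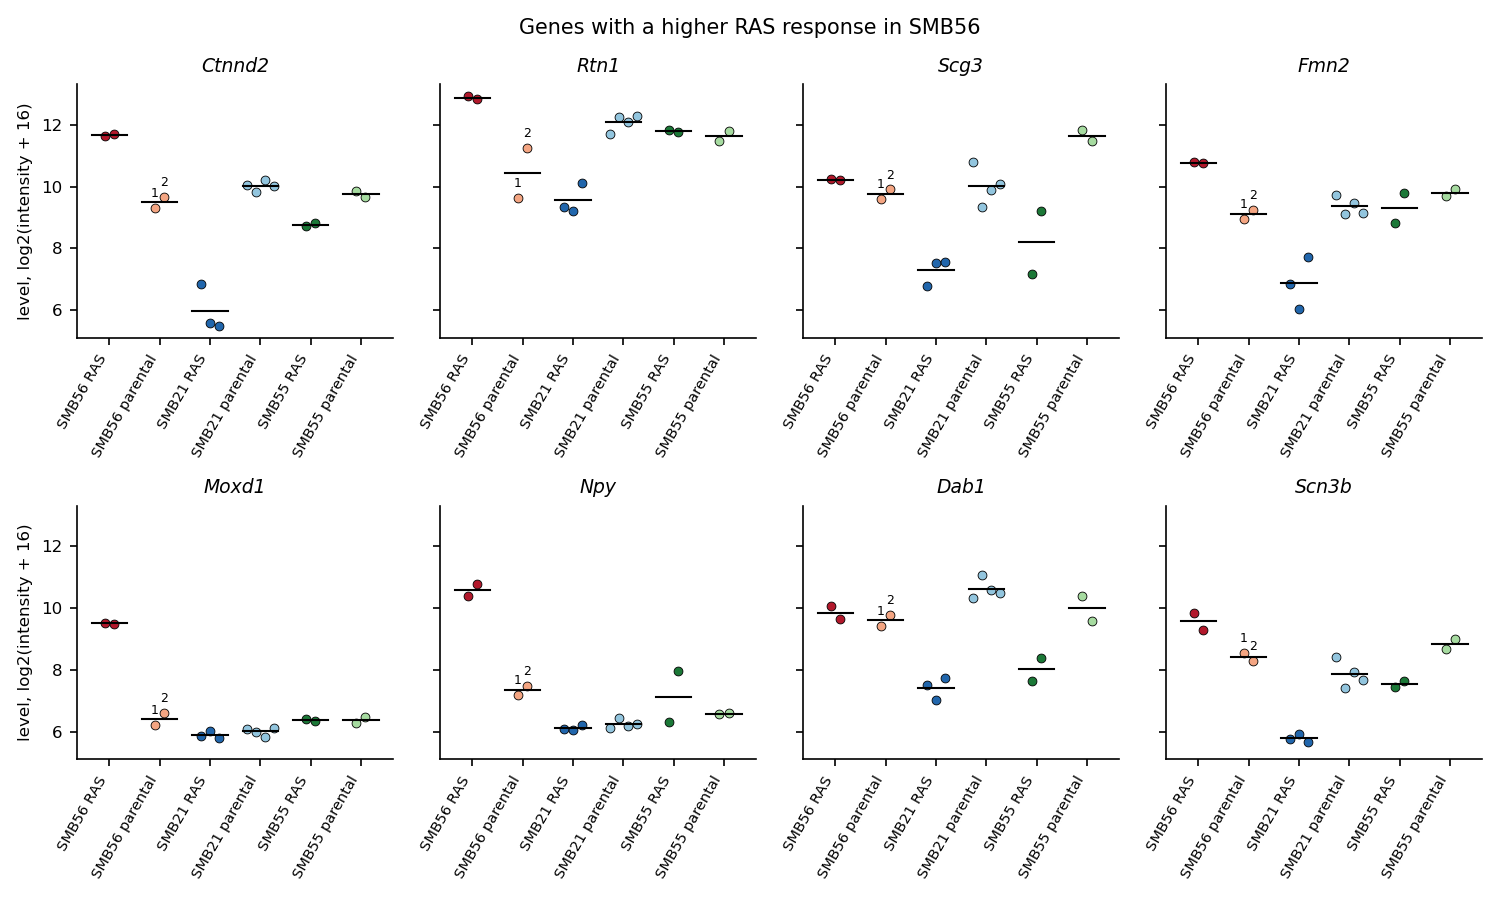
Level of 8 genes with a higher RAS response in SMB56, in log2 of intensity plus 16, with 1 point per array, a bar at each group mean, and the SMB56 parental arrays marked 1 and 2. Moxd1 lies at 9.52 and 9.50 in the SMB56 RAS arrays and below 7 in all others, and Ctnnd2 falls in SMB21 while it rises in SMB56.

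Ctnnd2, Moxd1 and Scn3b kept their calls when each of the 15 arrays was left out in turn. Without SMB56 RAS array 2 the other 12 of these 15 named genes lost theirs (adjusted p = 0.0756 to 0.24), without SMB56 parental array 1 11 did (0.0778 to 0.139) and without SMB56 RAS array 1 8 did (0.0627 to 0.116). Leaving out a single array of another line ended the calls of at most 5, which lay among Asic2, Fmn2, Foxm1, Hes5, Lgr5, Scg3 and Slitrk1.

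Among the lower genes, several rose with RAS in SMB21 and SMB55 and responded less in SMB56. Dusp2, a nuclear phosphatase that switches ERK off, stood at 8.56 and 7.62 in SMB56 RAS and at 6.93 and 6.66 in SMB56 parental cells. SMB21 had 12.11, 11.24 and 10.85 in RAS arrays and 6.42 to 7.02 in parental ones, and SMB55 11.93 and 10.89 in RAS arrays and 6.65 and 6.36 in parental ones. The response of 1.29 in SMB56 did not pass (adjusted p = 0.0837), the parental groups overlapped, and both SMB56 RAS arrays lay below all other RAS arrays. The difference was -3.47 (SE 0.52, adjusted p = 0.0138), and -3.60 and -3.33 with parental array 1 and 2 alone.

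Inhba, the subunit of activin A, stood at 8.36 and 7.13 in SMB56 RAS and at 6.30 and 6.24 in SMB56 parental cells. SMB21 had 10.29, 10.82 and 10.04 in RAS arrays and 6.27 to 6.47 in parental ones, and SMB55 10.40 and 10.63 in RAS arrays and 6.44 and 6.48 in parental ones. The parental levels of the 3 lines lay together and the RAS levels did not. The difference was -2.56 (SE 0.39, adjusted p = 0.0138, -2.60 and -2.53 with parental array 1 and 2 alone).

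Pmepa1, a membrane protein induced by TGF-beta that restrains its signal, stood at 11.15 and 10.46 in SMB56 RAS and at 8.89 and 8.74 in SMB56 parental cells. The responses were 2.00 in SMB56, 6.08 in SMB21 and 4.27 in SMB55, and SMB21 parental cells were the lowest, at 6.05 to 7.15. The difference was -3.18 (SE 0.42, adjusted p = 0.00816, -3.25 and -3.11 with parental array 1 and 2 alone). Itga6, a laminin-binding integrin subunit, stood at 10.95 and 11.19 in SMB56 RAS and at 9.23 and 9.93 in SMB56 parental cells. Its responses were 1.49 in SMB56, 4.02 in SMB21 and 4.80 in SMB55, with a difference of -2.92 (SE 0.42, adjusted p = 0.0117, -2.57 and -3.27 with parental array 1 and 2 alone). In both genes the SMB56 parental arrays lay above those of the other lines, and the SMB56 RAS arrays lay below the other RAS arrays.

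Ahnak, a very large scaffold protein at the cell membrane, stood at 9.52 and 9.65 in SMB56 RAS, and at 10.27 and 8.64 in SMB56 parental arrays 1 and 2. It rose by 3.73 in SMB21 and 3.82 in SMB55. The SMB56 RAS arrays lay between the parental arrays of their own line, and the difference was -3.65 (SE 0.61, adjusted p = 0.0245), -4.46 and -2.83 with either parental array. Pla2g4a, the phospholipase A2 that releases arachidonic acid, stood at 5.27 and 5.49 in SMB56 RAS and at 5.66 and 5.11 in SMB56 parental cells, close to the lowest intensities. It stood at 7.81 to 9.61 in the RAS arrays of the other lines, and its difference was -3.16 (SE 0.52, adjusted p = 0.0237, -3.43 and -2.88 with parental array 1 and 2 alone).

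Adcy7, an adenylyl cyclase, stood at 6.12 and 5.49 in SMB56 RAS and at 7.17 and 6.21 in SMB56 parental cells, with rises of 3.08 in SMB21 and 2.06 in SMB55. Its difference was -3.45 (SE 0.63, adjusted p = 0.0319, -3.93 and -2.97 with parental array 1 and 2 alone).

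Another set had its large responses in SMB21, with low responses in both SMB56 and SMB55. Esm1, the secreted proteoglycan endocan, stood at 5.19 and 5.26 in SMB56 RAS and at 5.33 and 5.14 in SMB56 parental cells. It stood at 11.95, 12.26 and 11.66 in SMB21 RAS and at 5.17 to 5.40 in SMB21 parental cells, and at 5.34 and 6.13 in SMB55 RAS and 5.24 and 5.20 in SMB55 parental cells. The 3 SMB21 RAS arrays were high and the other 12 were low. The difference from the mean of both lines was -3.59 (SE 0.28, adjusted p = 0.000316, -3.69 and -3.50 with parental array 1 and 2 alone). Against SMB21 it was -6.66, and against SMB55 it was -0.53 and did not pass (adjusted p = 0.529).

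Usp18, a protease that removes the interferon-induced modifier Isg15, stood at 5.60 and 5.53 in SMB56 RAS and at 5.94 and 5.66 in SMB56 parental cells. It stood at 10.09, 11.04 and 11.36 in SMB21 RAS, and at 5.89 and 7.06 in SMB55 RAS. The difference was -3.03 (SE 0.54, adjusted p = 0.0276, -3.17 and -2.90 with parental array 1 and 2 alone), -5.65 against SMB21 and -0.41 against SMB55, where it did not pass (adjusted p = 0.871). Pdgfb, a platelet-derived growth factor, stood at 5.78 and 5.83 in SMB56 RAS and at 5.71 and 5.85 in SMB56 parental cells, against 8.42 to 8.89 in SMB21 RAS. It also rose in SMB55, by 0.53 (adjusted p = 0.0444). Its difference was -1.61 (SE 0.20, adjusted p = 0.00734, -1.54 and -1.68 with parental array 1 and 2 alone), and -0.50 against SMB55 alone (adjusted p = 0.375).

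A last set fell with RAS in SMB56. Zic5, a zinc finger factor of the Zic family, which is active in granule neuron precursors, stood at 7.90 and 8.01 in SMB56 RAS and at 11.69 and 10.81 in SMB56 parental cells. SMB21 had 10.68, 10.88 and 10.59 in RAS arrays and 11.20 to 11.90 in parental ones, and SMB55 8.35 and 8.87 in RAS arrays and 7.13 and 7.90 in parental ones. The SMB56 parental level lay beside that of SMB21 and the SMB56 RAS level lay just below that of SMB55 RAS. The difference was -3.40 (SE 0.39, adjusted p = 0.00693), and -3.84 and -2.96 with either parental array.

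Antxr2, an anthrax toxin receptor that binds matrix proteins, stood at 8.48 and 7.96 in SMB56 RAS and at 9.94 and 9.35 in SMB56 parental cells. It rose by 1.88 in SMB21 and 1.71 in SMB55, and its difference of -3.21 (SE 0.31, adjusted p = 0.0014, -3.51 and -2.92 with parental array 1 and 2 alone) was called against each line. Ebf1, an early B-cell factor that is also active in neurons, stood at 5.73 and 6.21 in SMB56 RAS, and at 11 and 9.43 in SMB56 parental arrays 1 and 2. Its group means were 10.08 in SMB21 RAS and 9.79 in SMB21 parental cells, and 7.04 in SMB55 RAS and 8.13 in SMB55 parental cells. By size Ebf1 thus fell at least 2-fold in SMB55 too, where the parental arrays had an SD of 1.6. Its difference was -3.84 (SE 0.76, adjusted p = 0.0437), -4.62 with parental array 1 alone and -3.05 with parental array 2 alone. Slc66a2, a membrane protein of the PQ-loop family, stood at 8.52 and 8.20 in SMB56 RAS, and at 12.65 and 11.02 in the parental arrays, above the parental arrays of the other lines, which had 7.58 to 9.98. Its difference was -3.76 (SE 0.48, adjusted p = 0.00816, -4.58 and -2.95 with parental array 1 and 2 alone).

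Sec16b, a protein of the sites where cargo leaves the endoplasmic reticulum, stood at 5.64 and 5.61 in SMB56 RAS and at 6.68 and 7.29 in SMB56 parental cells. From parental to RAS cells its group mean rose from 7.01 to 9.45 in SMB21 and from 5.64 to 6.71 in SMB55. The difference, to which these rises add, was -3.12 (SE 0.41, adjusted p = 0.00816, -2.81 and -3.42 with parental array 1 and 2 alone). Gli2, the transcription factor that carries the Hedgehog signal into the nucleus, stood at 7.85 and 8.18 in SMB56 RAS and at 11.60 and 11.93 in SMB56 parental cells. It fell by 3.75 in SMB56, 1.52 in SMB21 and 2.73 in SMB55, with a difference of -1.62 (SE 0.30, adjusted p = 0.0339, -1.46 and -1.79 with parental array 1 and 2 alone). Gli2 thus fell in every line, and its RAS levels overlapped between SMB56 and SMB55, which had 7.89 and 8.43.

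**Figure D3:**
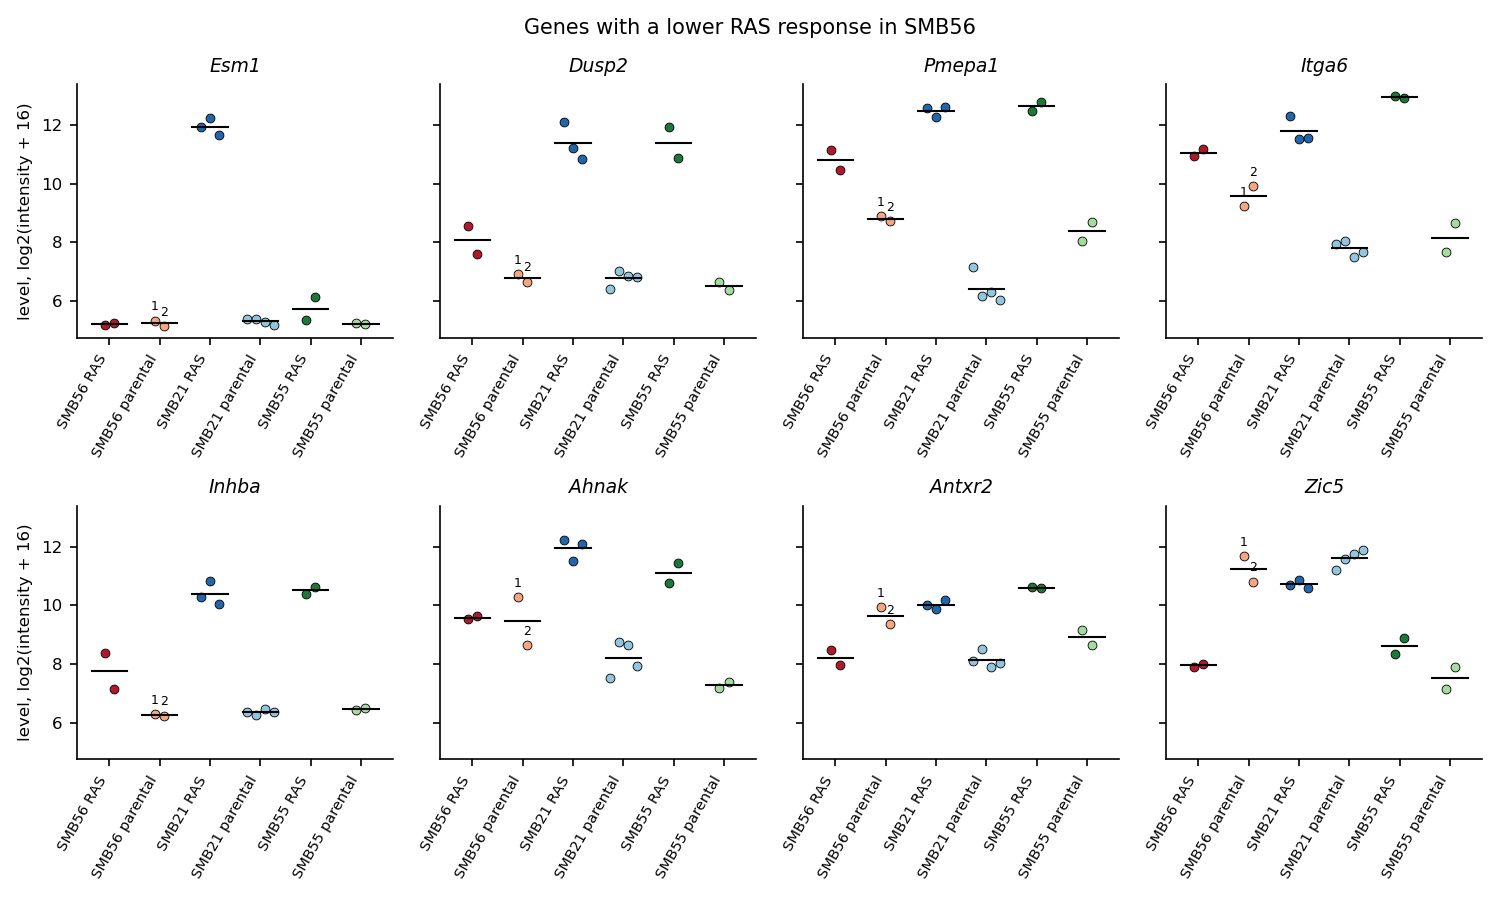
Level of 8 genes with a lower RAS response in SMB56, in log2 of intensity plus 16, with 1 point per array, a bar at each group mean, and the SMB56 parental arrays marked 1 and 2. Esm1 is high in SMB21 RAS alone, at 11.66 to 12.26, while Dusp2 and Inhba are high in SMB21 RAS and SMB55 RAS and lower in SMB56 RAS.

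Esm1 and Antxr2 kept their calls when each array was left out in turn. Without SMB56 RAS array 2 the other 15 of these named lower genes, Plaur included, lost theirs (adjusted p = 0.0528 to 0.209), without SMB56 parental array 1 9 did (0.0719 to 0.156) and without SMB56 RAS array 1 8 did (0.0562 to 0.138). Leaving out a single array of another line ended the calls of at most 5, which lay among Adcy7, Ebf1, Gli2, Plaur and Usp18.

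ERK targets and feedback genes were called up with RAS in similar numbers in SMB56 and in the other lines. Of 20 measured, 14 were called up in SMB56, 14 in SMB21 and 13 in SMB55 (6.31%, 9.15% and 10.8% of all genes), with median responses of 2.10, 1.80 and 2.24. The SMB56 difference had 1 call, a lower one (5.00%, against 0.928% of all genes), and a median of -0.10, against -0.01 over all genes. With parental array 1 and 2 alone the median was 0.18 and -0.55. The ERK phosphatase Dusp2, called lower above, was not on this list and is not in these counts. Dusp6, a cytoplasmic phosphatase of ERK, stood at 13.06 and 12.81 in SMB56 RAS and at 9.81 and 10.80 in SMB56 parental cells. Its response of 2.63 compared with 2.54 in SMB21 and 3.39 in SMB55, a difference of -0.33 (SE 0.48, adjusted p = 0.826). Spry4 (0.15, adjusted p = 0.935), a Sprouty inhibitor of the pathway, and Etv5 (0.60, adjusted p = 0.72), an Ets factor induced by ERK, did not pass either, nor did Ccnd1 (0.13, adjusted p = 0.879), the cyclin D1 gene.

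The call in that list was Plaur, the receptor that holds urokinase at the cell surface. It stood at 9.08 and 9.05 in SMB56 RAS and at 7.48 and 7.08 in SMB56 parental cells. SMB21 had 10.29, 10.19 and 10.58 in RAS arrays and 7.49 to 8.03 in parental ones, and SMB55 10.68 and 10.42 in RAS arrays and 7.09 and 7.19 in parental ones. It rose in all 3 lines, least in SMB56, and the difference was -1.23 (SE 0.23, adjusted p = 0.0359, -1.43 and -1.03 with parental array 1 and 2 alone).

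Of 34 cytokine and chemokine genes, 8 rose in SMB56, 19 in SMB21 and 11 in SMB55, against 6.31%, 9.15% and 10.8% of all genes. The SMB56 difference was lower in 3 of them and higher in 0 (8.82%, against 0.928% of all genes), with a median of -0.44. The 3 were Inhba, Pdgfb and Il6, the last outside the rule for named genes and chosen after its values were seen. Il6, an inflammatory cytokine, stood at 5.24 and 5.36 in SMB56 RAS and at 5.34 and 5.13 in SMB56 parental cells. It stood at 8.80, 7.25 and 8.01 in SMB21 RAS and at 7.26 and 7.90 in SMB55 RAS, and at 5.08 to 5.32 in the parental cells of both. Its difference was -2.55 (SE 0.44, adjusted p = 0.0264, -2.65 and -2.45 with parental array 1 and 2 alone). Not every cytokine behaved so, since Il33 had 12.45 and 12.20 in SMB56 RAS and 5.64 and 6.56 in SMB56 parental cells, and rose by 6.23 in SMB56, 5.05 in SMB21 and 5.31 in SMB55.

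The promoters of Il6 and Plaur are shown because both genes were called lower and both hold a letter match to the AP-1 site, which Fos and Jun proteins bind. The sequences are the 250 bases before the gene start, 5′ to 3′ on the plus strand, from RefSeq on GRCm38.p6, at chr5:30012864-30013113 for Il6 and chr7:24462233-24462482 for Plaur. Capitals mark the match to TGACTCA or its reverse complement TGAGTCA.
Il6: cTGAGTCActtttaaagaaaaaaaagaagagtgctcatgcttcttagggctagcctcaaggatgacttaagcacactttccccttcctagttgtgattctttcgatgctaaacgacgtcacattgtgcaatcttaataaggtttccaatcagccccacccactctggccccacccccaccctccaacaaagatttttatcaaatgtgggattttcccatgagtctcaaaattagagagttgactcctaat
Plaur: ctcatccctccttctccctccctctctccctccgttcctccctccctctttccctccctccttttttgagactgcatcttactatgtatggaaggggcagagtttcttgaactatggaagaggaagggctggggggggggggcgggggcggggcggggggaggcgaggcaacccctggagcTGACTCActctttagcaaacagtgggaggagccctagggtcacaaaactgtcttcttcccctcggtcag
The match starts 249 bases before the gene start in Il6 and 69 bases before it in Plaur. In windows of 300 bases, which reach 50 past the start, it was found on either strand in 2 of the 25 lower genes with a promoter sequence (8.0%) and in 2 of the 52 higher ones (3.85%). It was found in 428 of all 9526 fitted genes with one (4.49%). The CRE site TGACGTCA was found in 3 of the 52 higher genes (5.77%), in 0 of the 25 lower ones and in 266 of all 9526 (2.79%). These matches describe letters in a window and nothing about binding.

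Matrix and migration genes had low medians in the difference, and few of them passed its test one by one. Of 28 extracellular matrix genes, 3 were called up in SMB56, 19 in SMB21 and 13 in SMB55, against 6.31%, 9.15% and 10.8% of all genes, with median responses of 0.31, 2.63 and 1.44. In this list the difference had 0 calls, against 0.928% of all genes. Its median was -1.08, and -0.98 and -1.28 with either parental array. The mean level of the list was 8.76 and 8.70 in SMB56 RAS and 7.79 and 8.20 in SMB56 parental cells. It was 8.72 to 9.26 in SMB21 RAS and 6.72 to 6.96 in SMB21 parental cells, and 9.15 and 9.23 in SMB55 RAS and 7.27 and 7.86 in SMB55 parental cells. SMB56 parental array 2 lay above the parental arrays of both other lines and array 1 above those of SMB21. Sparc, a matrix glycoprotein named after its values were seen, as were Anxa1, Fn1 and Il33, stood at 13.23 and 12.70 in SMB56 RAS and at 13.18 and 12.78 in SMB56 parental cells, while it rose by 2.11 in SMB21 and 2.47 in SMB55. Its difference was -2.30 (SE 0.49, adjusted p = 0.0536).

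Of 31 invasion and mesenchyme genes, 8 were called up in SMB56, 23 in SMB21 and 13 in SMB55, lines in which 6.31%, 9.15% and 10.8% of all genes were up. The difference had 1 call, that of Itga6 (3.23%, against 0.928% of all genes), and a median of -0.55. Anxa1, an annexin, rose strongly in all 3 lines, by 5.97 in SMB56, 8.26 in SMB21 and 6.61 in SMB55, and its difference was -1.46 (SE 0.38, adjusted p = 0.099). Fn1, fibronectin, stood at 12.65 and 12.06 in SMB56 RAS and at 9.93 and 10.06 in SMB56 parental cells, with a difference of -2.91 (SE 0.62, adjusted p = 0.0526). Of 26 interferon response genes, 3 were called up in SMB56, 17 in SMB21 and 3 in SMB55, beside those same shares of all genes. Their difference had 1 call, that of Usp18 (3.85%, against 0.928% of all genes), and a median of -0.52, which was -0.71 and -0.02 with either parental array.

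Granule neuron precursor genes were called down with RAS in all 3 lines. Of 15, 13 were called down in SMB56, 8 in SMB21 and 10 in SMB55, against 5.39%, 10.4% and 10.7% of all genes. In SMB55 1 was called up. The difference had 1 call, that of Zic5 (6.67%, against 0.928% of all genes), with a median of -0.61. Atoh1 stood at 5.76 and 7.63 in SMB56 RAS and at 12.97 and 12.24 in SMB56 parental cells. It fell by 5.91 in SMB56, 6.71 in SMB21 and 6.46 in SMB55, and the difference of 0.67 (SE 0.66, adjusted p = 0.711) did not pass.

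The Shh pathway list held 18 measured genes, with targets such as Gli1 and components such as Gli2, so its counts are not those of targets alone. Of the 18, 5 were called down and 2 up in SMB56, against 5.39% of all genes down. In SMB21 7 were down and 2 up, and in SMB55 7 down and 1 up, against 10.4% and 10.7% of all genes down. For these genes the difference had 1 call, that of Gli2 (5.56%, against 0.928% of all genes), with a median of 0.05. Gli1 fell by 2.77 in SMB56, 2.37 in SMB21 and 3.38 in SMB55, a difference of 0.11 (SE 0.71, adjusted p = 0.973). Mycn had responses of -3.62 in SMB56, -3.63 in SMB21 and -4.31 in SMB55, each called, a difference of 0.35 (SE 0.68, adjusted p = 0.88). Ptch1 (0.88, SE 0.62, adjusted p = 0.557) and Hhip, a decoy receptor of the ligand (1.25, SE 1.06, adjusted p = 0.655), did not pass. A p that misses the threshold does not show that the lines responded alike. The tumor suppressor Cdkn2a, called up in all 3 lines, had a difference of 0.62 (SE 0.30, adjusted p = 0.371).

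Nras, a RAS gene, stood at 11.52 and 11.93 in SMB56 RAS and at 11.72 and 11.30 in SMB56 parental cells. It stood at 11.67 to 11.93 in SMB21 RAS and 10.50 and 11.03 in SMB55 RAS, and its difference was 0.88 (SE 0.31, adjusted p = 0.214).

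The list of 21 neuronal differentiation genes had 0 calls in the difference, though its median was 0.55. It lay above 0 in 14 of the 21 genes and below 0 in the rest, beside 5807 above 0 of all 11957. The median of the list was 0.02 with parental array 1 alone and 0.71 with array 2 alone. Named after their values were seen, its members Stmn3 (2.87, SE 0.63, adjusted p = 0.0566), a stathmin, and Mapt (2.30, SE 0.50, adjusted p = 0.0556), the tau gene, came close to the threshold. Stmn3 stood at 9.68 and 9.63 in SMB56 RAS, against 6.96 to 7.24 in SMB21 RAS and 7.06 and 8.14 in SMB55 RAS. Chosen after their values were seen, Rest, a repressor of neuronal genes, and Ctnna2, the catenin alpha of neurons, were also called. Rest stood at 9.62 and 9.79 in SMB56 RAS and at 10.10 and 10.02 in SMB56 parental cells, below the other RAS arrays at 10.56 to 11.23, with a difference of -1.55 (SE 0.26, adjusted p = 0.0251, -1.59 and -1.51 with parental array 1 and 2 alone). Ctnna2 had a difference of 1.97 (SE 0.29, adjusted p = 0.0129, 2.21 and 1.73 with parental array 1 and 2 alone).

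The medians of some lists turned on the parental array. The oligodendrocyte list had 0 calls and a median of 1.33, which was 2.67 with parental array 1 alone and 0.12 with array 2 alone. The muscle list had 0 calls and a median of -0.74, which was -1.78 and 0.15. Glycolysis and hypoxia genes had 0 calls in 21 and a median of 0.81, which was 1.41 and 0.34. Of the remaining lists, neural stem and progenitor cells (20 measured), proliferation (31) and Wnt targets (20) had 1 higher call each, Hes5, Foxm1 and Lgr5. Over all genes 0.585% were called higher. The other 14 lists had 0 calls, with medians between -0.22 and 0.52.

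**Figure D4:**
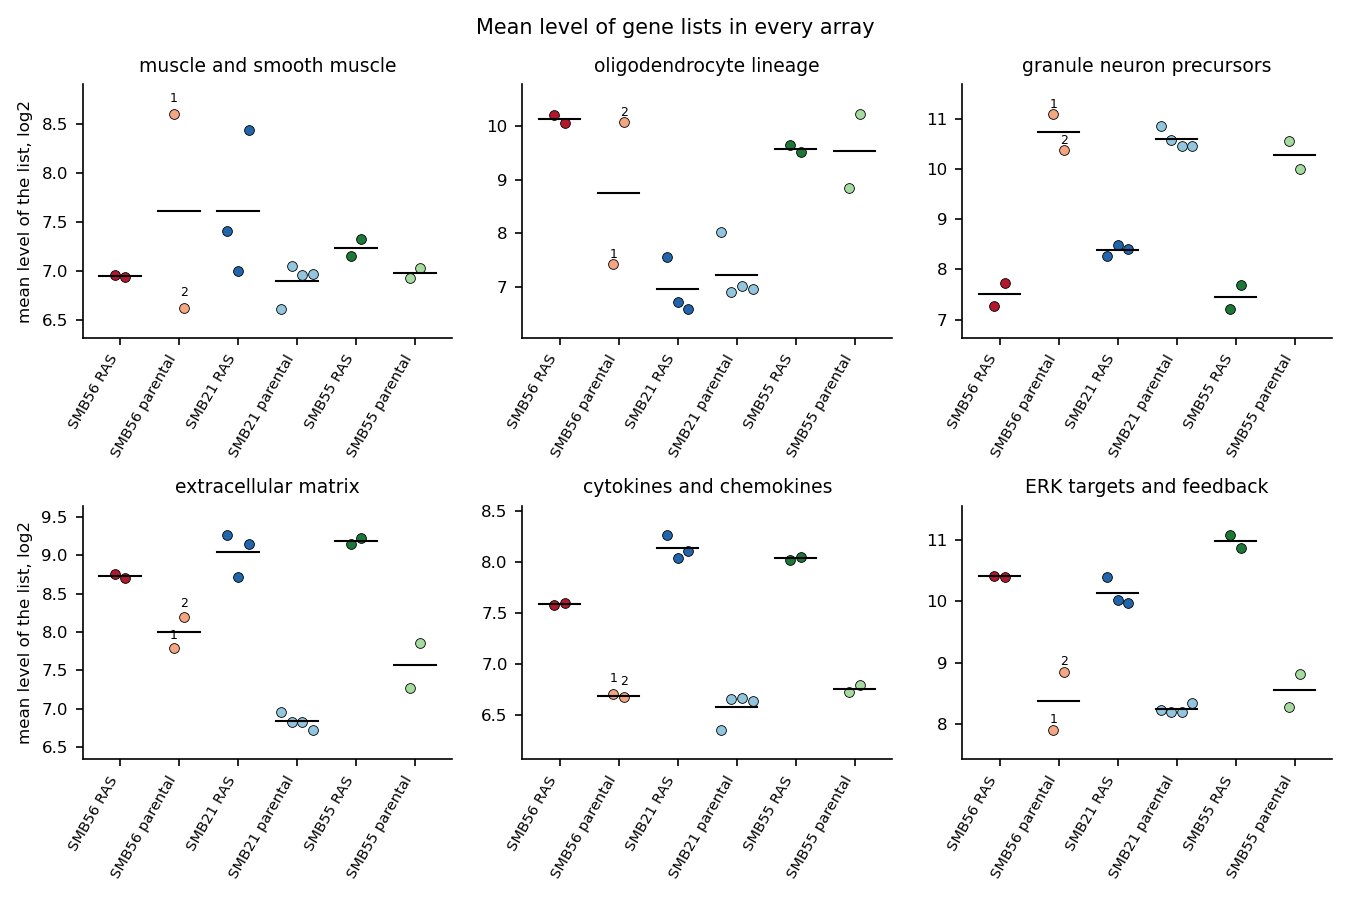
Mean level of 6 gene lists in each of the 15 arrays, in log2 of intensity plus 16, with a bar at each group mean and the SMB56 parental arrays marked 1 and 2. SMB56 parental array 1 lies at 8.60 for muscle genes and at 7.42 for the oligodendrocyte lineage, apart from array 2, while the ERK targets rise in all 3 lines. For muscle genes SMB21 RAS array 3 lies high too, at 8.43.

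The median difference of some chromosomes lay away from 0, and in part of them it moved with the choice of parental array. These medians, and those of single arrays below, use only genes whose highest group mean reached the median level of 8.42. On chromosome 7 these were 480 of the 958 fitted genes. Their median difference was 0.48, which was 0.79 with parental array 1 alone and 0.09 with array 2 alone. In single arrays, the median deviation of chromosome 7 from the mean over the 15 arrays was 0.07 and 0.17 in SMB56 RAS, and -0.53 and 0.14 in SMB56 parental arrays 1 and 2. Parental array 1 was thus the low one. Chromosome 18 had a median of -0.39 (-0.58 and -0.17 with either array) and chromosome 13 one of 0.25 (0.46 and 0.06). Chromosome 6 had 0.26 (0.37 and 0.08) and chromosome 15 had 0.28 (0.31 and 0.13). Chromosomes 17 (0.24, with 0.23 and 0.27) and 19 (0.27, with 0.23 and 0.24) hardly moved with the array. The other 12 autosomes had medians between -0.16 and 0.16. Among them chromosome 14 had -0.38 with array 1 alone and 0.06 with array 2 alone, and chromosome 10 had 0.15 and -0.23. In the order SMB56, SMB21 and SMB55, the median response was 0.32, -0.19 and -0.11 on chromosome 7. It was -0.32, 0.14 and -0.15 on chromosome 18, and 0.35, 0.36 and -0.2 on chromosome 13. Chromosome 6 had 0.16, -0.1 and -0.05, and chromosome 15 had 0.37, -0.13 and 0.44. On chromosome 17 it was -0.01, -0.2 and -0.25, and on chromosome 19 it was -0.01, -0.0 and -0.44. Of the 70 higher genes 10 lay on chromosome 7, which holds 8.0% of the genes, 10 on chromosome 6, which holds 6.1%, and 7 on chromosome 15, which holds 4.1% and on which Ctnnd2, Pvt1 and Nell2 lie. Genes called lower lay on these chromosomes too, 2 on chromosome 7, 5 on chromosome 6 and 3 on chromosome 15. Chromosome 6 held the most lower calls of any autosome, so its calls did not all go 1 way. Copy number was not measured, and its part in these medians and counts was not tested.

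**Figure D5:**
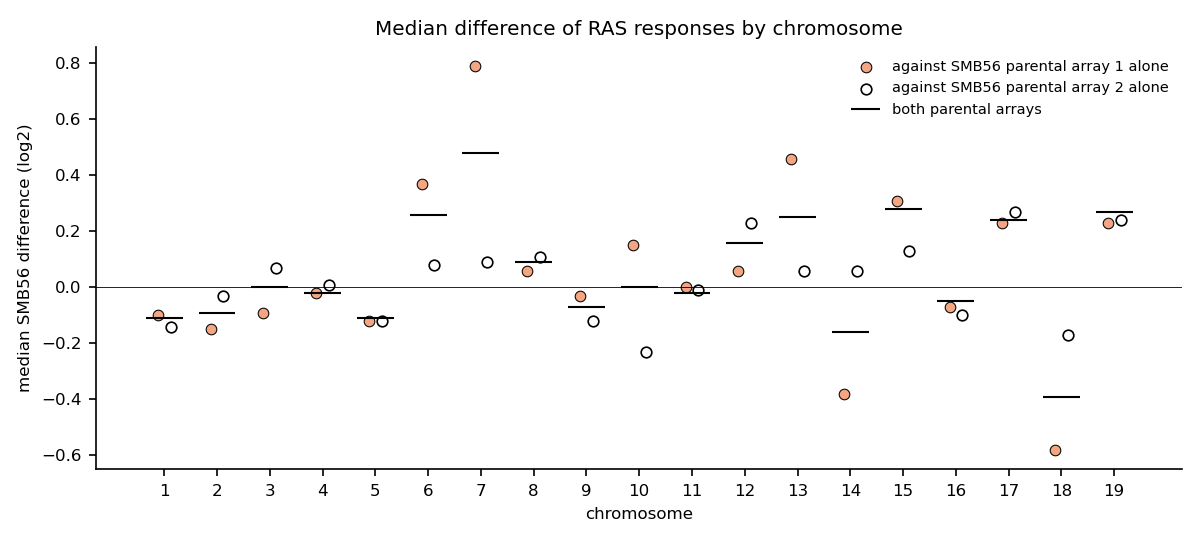
Median SMB56 difference (log2) of the genes of each autosome, as a bar with both SMB56 parental arrays and as a filled or open point with array 1 or array 2 alone. Only genes whose highest group mean reached the median level are included. Chromosome 7 lies at 0.79 with array 1 and at 0.09 with array 2.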

How the data were processed

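Biotin-labelled RNA was hybridised to Affymetrix arrays, per the labels' protocols. The deposited values are 1 linear intensity per probe set and array. How the authors summarised and scaled them is not stated in the sources used here, but the arrays have nearly the same quartiles. Of 22690 probe sets, 20393 have 1 gene symbol in the platform annotation, 691 several and 1606 none, and 20360 were matched to RefSeq genes of GRCm38.p6. Each of 12394 genes was represented by its brightest probe set, averaged over the 24 arrays of the series. The 410 genes on X or Y and 27 without a chromosome were left out.

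Levels are log2 of the deposited intensity plus 16. With limma 3.58.1 in R 4.3.3, 6 group means were fitted over 15 arrays (9 residual degrees of freedom), with empirical Bayes moderation and two-sided tests. P-values were adjusted by the Benjamini-Hochberg method over 11957 genes, and a gene was called at an adjusted p under 0.05. Groups and replicate numbers were read from the titles. The fit was tested on simulated data. Figures were drawn with matplotlib 3.10.9. Growth factor arrays, cerebella and tumors were not used here.

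Named genes were the 12 largest rises and 12 largest falls among called genes whose highest group mean reached the median of 8.42 and whose sign held with either SMB56 parental array, passing over clone-like names. To these were added at most 2 called members of each of 28 lists, those of lowest p. The genes Gli1, Ptch1, Hhip and Mycn, the genes Atoh1, Ccnd1, Dusp6, Spry4 and Etv5, and Cdkn2a and Nras were named whatever their values. The comparison, the lists and the rule were chosen with earlier results of these data known. Alternatives varied the value added, the scaling, the probe sets, the filter on low genes, the variance prior, array weights, a replicate block, the pooling of the other lines and each array left out in turn.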

Additional observations from a re-analysis of the deposited data

Results flagged for a closer look

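In 32 named genes the RAS response of SMB56 differed from the mean response of SMB21 and SMB55 by the limma test of that difference, which does not say that it differed from each line. In 15 it was higher, namely Ctnnd2 (4.69), Rtn1 (3.62), Scg3 (3.56), Slitrk1 (3.25), Fmn2 (3.16), Moxd1 (3.15), Npy (3.04), Nell2 (2.94), Dab1 (2.84), Scn3b (2.84), Pvt1 (2.65), Asic2 (2.65), Hes5 (2.13), Lgr5 (1.56) and Foxm1 (1.07). In 17 it was lower, namely Ebf1 (-3.84), Slc66a2 (-3.76), Ahnak (-3.65), Esm1 (-3.59), Dusp2 (-3.47), Adcy7 (-3.45), Zic5 (-3.40), Antxr2 (-3.21), Pmepa1 (-3.18), Pla2g4a (-3.16), Sec16b (-3.12), Usp18 (-3.03), Itga6 (-2.92), Inhba (-2.56), Gli2 (-1.62), Pdgfb (-1.61) and Plaur (-1.23).

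Among the 4 SMB21 parental arrays, 1 array lay far from the others in 2 of 43 named genes. For any of the 4 arrays chance gives about 2, and in both genes it was replicate 1. Its level was 6.33 in Adcy7, against 5.90 to 5.96 in the others, and 11.69 in Nras, against 12.34 to 12.36. Over all fitted genes replicate 1 correlated at 0.969 to 0.972 with the other SMB21 parental arrays. Those correlated at 0.992 to 0.996 with each other.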

How the results depend on the processing

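The 32 called named genes kept their sign under every alternative run and kept their call in 692 of 927 repeats, and 0 of the 11 others gained one. The SMB56 difference had 101 calls with 1 added before log2 in place of 16, 163 with 64, 125 with centred arrays, which shift the median of all genes by -0.107, and 121 without the parental arrays numbered 1, of which 44 were shared with the 111. It had 15 with the arrays of SMB21 and SMB55 pooled, where 25 of the 32 named genes lost their call and 7 kept it. Leaving out 1 array gave 5 to 846 calls for the SMB56 difference, 309 to 2239, 1663 to 2628 and 1198 to 2936 for the responses of SMB56, SMB21 and SMB55, 47 to 983 for SMB56 minus SMB21, 7 to 545 for SMB56 minus SMB55 and 82 to 578 for SMB21 minus SMB55. A group left with 1 array is assumed to vary like the others. With each probe set tested apart the counts in this order were 178, 2213, 3739, 4254, 348, 128 and 498, over more features. With the replicate block they were 1, 371, 1198, 1493, 14, 0 and 7, so that 31 of the 32 named genes lost their call and Moxd1 kept its own. That limma fit has 4 residual degrees of freedom, draws nothing from SMB21 parental array 4, and gives 1405 genes at an unadjusted p under 0.05 where it calls 0. Arrays of shared number were not shown to be pairs, since their deviations correlated at -0.02 in SMB56, -0.037 to -0.025 in SMB21 and -0.153 in SMB55. With the SMB55 numbers crossed, an alternative chosen after seeing the data, the counts that moved were 1, 683, 1373, 18, 0 and 11, all but that of the SMB55 response, with 1530 genes at an unadjusted p under 0.05 at the count of 0. The SMB56 minus SMB55 count was 125 with 64 added and 140 without the parental arrays numbered 1, which gave 632 for the SMB56 response, and array weights gave 672 for SMB21 minus SMB55. The cause of these shifts was not tested. Intensities near the lowest values limit what can be seen of low genes, and 27 of the 111 called genes had their highest group mean below the median.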
